A study of Homo sapiens with 6 samples.

Results

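Notch receptors, ligands and targets were followed as 10 genes, chosen by name, with earlier results of these data known: the receptors NOTCH1, NOTCH2 and NOTCH3, the ligands JAG1, JAG2 and DLL1, and the target genes HES1, HEY1, HEY2 and NRARP. All 10 stood among the 37887 gene symbols listed in the table, and all 10 were among the 18851 genes that passed the filter on low counts. The samples were BT-549 cells, an established human triple-negative breast cancer (TNBC) line, sequenced as 3 control and 3 IRF1shRNA libraries to learn which genes depend on IRF1, a transcription factor of the interferon response. The control samples received 0.1% DMSO, the solvent, while doxycycline at 500 ng/ml, which switches on the hairpin, was given to the IRF1shRNA samples. The sample titles call the first group control shRNA, whereas the series description names 1 line carrying a tet-inducible IRF1 hairpin under both treatments, so what the controls carry is open. Doxycycline reached the silenced samples and no control, so its own effects and those of losing IRF1 cannot be told apart, and the model is 1 cell line with 1 named hairpin. The triplicates are described as cultures, with nothing to say that they were grown separately, and the p-values therefore measure the spread between these samples, which may be technical.

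Notch signaling passes between touching cells. A ligand of the Jagged or Delta family on one cell pulls on a receptor of its neighbour, ADAM proteases and then the gamma-secretase complex cut the receptor, and the freed intracellular domain joins the DNA-binding protein RBPJ and a Mastermind-like (MAML) coactivator to switch on genes such as HES1, HEY1, HEY2 and NRARP. In breast epithelium the pathway is known for its part in progenitor cells and cell fate, and in triple-negative tumors for altered receptors and for Jagged ligands.

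The RBPJ recognition core is a short sequence, and the DNA in front of these genes was searched for it. Promoter windows, 250 bases before the start of transcription and 50 bases after it, were taken from RefSeq on GRCh38.p14 for 8 of the 10 genes, with no entry for DLL1 or HEY1. The core TGGGAA was searched on both strands, and 2 of the 8 windows held it, those of HES1 and HEY2, against 24.3% of all 27305 promoter windows. The 250 bases before the start site of these 2 targets are shown because they are the windows that hold the core, a share of the 8 close to that of all windows. Both are on the plus strand and run 5′ to 3′, HES1 at chr3:194135898-194136147 and HEY2 at chr6:125749382-125749631, with the core in capitals.
HES1: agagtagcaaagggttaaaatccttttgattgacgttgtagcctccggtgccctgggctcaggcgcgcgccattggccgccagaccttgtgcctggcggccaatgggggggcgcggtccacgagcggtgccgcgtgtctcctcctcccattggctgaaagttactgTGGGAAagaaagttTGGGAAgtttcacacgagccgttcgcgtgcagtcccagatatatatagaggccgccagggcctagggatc
HEY2: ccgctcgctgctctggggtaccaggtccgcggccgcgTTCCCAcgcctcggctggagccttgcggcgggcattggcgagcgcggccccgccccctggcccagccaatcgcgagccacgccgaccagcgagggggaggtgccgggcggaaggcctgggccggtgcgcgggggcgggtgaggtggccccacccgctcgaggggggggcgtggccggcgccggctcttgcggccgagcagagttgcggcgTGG

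In HES1 the core occurs at positions -84 and -70 from the start site, both times on the plus strand. In HEY2 it occurs at -213 on the minus strand, where it reads TTCCCA on the strand shown, and at -3, where the match runs past the start site so that the last 3 capitals are its beginning. The N-box CACNAG, which HES proteins bind, had matches in the windows of 5 of the 8 genes and in 38.0% of all windows, and HES1 itself held it at -165, -132, -58 and 16. The IRF element, GAAA repeated after any 2 bases, matched none of the 8 windows and 3.65% of all windows. A shorter form contained in it, AANNGAAA, matched none of the 8 and 23.2% of all. The TATA box TATAAA matched 1 of the 8, NRARP at -41, and 12.0% of all windows. These are matches of letters and not measured binding, and no match says only that the letters are not in this window. The share of G and C in the 8 windows ran from 59.0% in HES1 to 79.7% in JAG2, beside a median of 58.3% over all promoters. HES1 was thus close to that median, and the next lowest was JAG1 at 68.7%.

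IRF1 itself was measured first, since it checks the labels. Its level, as TMM-scaled CPM, the gene's count over the scaled library total, was 45.3, 48.1 and 51.5 in the 3 control samples and 13.8, 14.9 and 14.6 in the 3 IRF1shRNA samples. The silenced samples thus kept 29.9% of the control mean, and every one lay below every control. Total counts per library lay between 55143808 and 160436234, the lowest in IRF1shRNA replicate 2, and 3 counts, taken as the floor of detection, were worth 0.0182 to 0.0541 CPM. Of the receptors that define triple-negative tumors by their absence, ESR1 and PGR had group means of at most 0.244 CPM, whereas ERBB2 was detected at 50.8 CPM in controls and 36.4 CPM in IRF1shRNA samples. All 5 mesenchymal markers had a mean of at least 1 CPM. Epithelial, endothelial and immune markers had none of 5 in each list. The summed epithelial level was 2.26 to 2.82 CPM in controls and 1.10 to 1.43 CPM in IRF1shRNA samples. KRT14 at 0.765 and 0.0773 CPM, KRT5 at 0.270 and 0.0242 CPM and ESRP1 at 0.730 and 0.427 CPM were called lower. CDH1 and EPCAM were not called. KRT5 passed the filter on low counts through its controls alone, with 25, 34 and 49 counts there and 0, 2 and 6 in IRF1shRNA samples. KRT14, with 82, 87 and 137 counts in controls and 14, 4 and 8 in IRF1shRNA samples, also needed its controls to pass. The calls of KRT5 and KRT14 therefore carry no weight as tests. The endothelial and immune sums stayed at or below 0.914 and 0.865 CPM. Mural markers had 2 of 4, CSPG4 and RGS5, and their sum ranged from 33.5 to 38.1 CPM in controls and from 27.7 to 29.6 CPM in IRF1shRNA samples. CSPG4 was called lower, at 33.5 and 24.4 CPM, and RGS5 higher, at 2.46 and 3.90 CPM. Of the mesenchymal markers VIM, at 918 and 625 CPM, FN1, at 760.5 and 601 CPM, and ZEB1, at 87.2 and 79.4 CPM, were called lower. SPARC was called higher, at 1197 and 1374 CPM, and CDH2 was not called. The part of these epithelial, mural and mesenchymal markers in the Notch results was not tested.

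**Figure D1:**
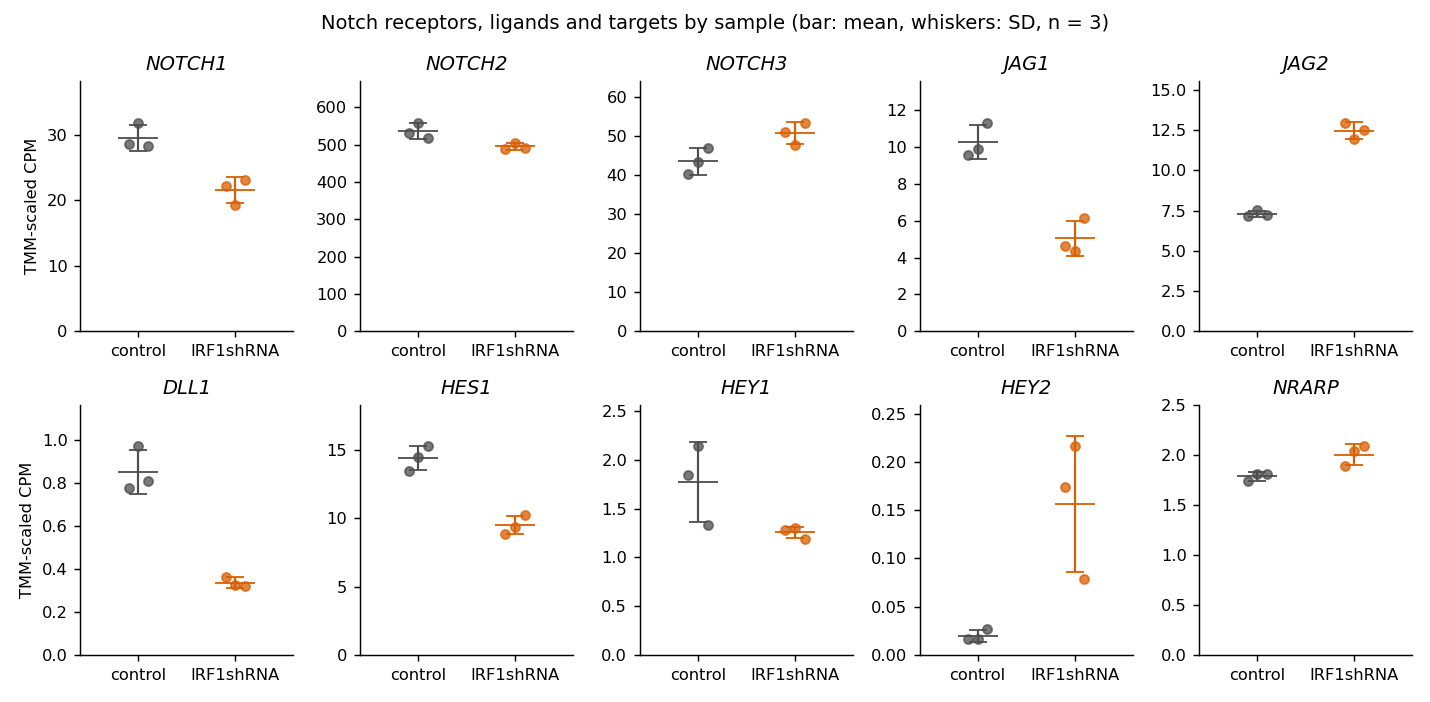
Level of each of the 10 Notch genes in each sample, with TMM-scaled CPM on a linear axis from 0, points for single samples, bars for the mean and whiskers for the SD of 3 samples. The control and IRF1shRNA points do not overlap in any panel. The IRF1shRNA points lie above the controls for JAG2, NOTCH3, HEY2 and NRARP and below them for the other 6 genes. The log2 fold change of NRARP was -0.00099 with thinned libraries, so no direction is drawn for it.

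After IRF1 silencing the Notch genes did not all move one way. JAG2, NOTCH3 and HEY2 were called higher, NOTCH1, NOTCH2, JAG1, DLL1, HES1 and HEY1 were called lower, and NRARP was not called. The calls rest on edgeR's quasi-likelihood test at a threshold of 0.05, Benjamini-Hochberg adjusted over all genes tested. The background was high, since 50.5% of all tested genes were called, 24.1% as higher and 26.4% as lower. Beyond 2-fold, HEY2 was called higher and JAG1 and DLL1 lower, JAG1 so narrowly that 8 of 15 alternatives placed it within 2-fold, where 3.43% of all tested genes were called higher and 4.43% lower by more than 2-fold. The groups did not overlap for any of the 10 genes, as was the case for 56.8% of all tested genes. The median log2 fold change was -0.28 over the 10 and -0.0024 over all tested genes. HEY2 enters these counts with a reservation. It passed the filter, set at 0.0802 CPM in at least 3 libraries, through its 3 IRF1shRNA libraries alone, so that it had to differ once tested, while the other 9 genes passed in all 6 libraries. In bulk RNA, fewer cells that express a gene and less of its RNA per cell cannot be told apart.

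**Figure D2:**
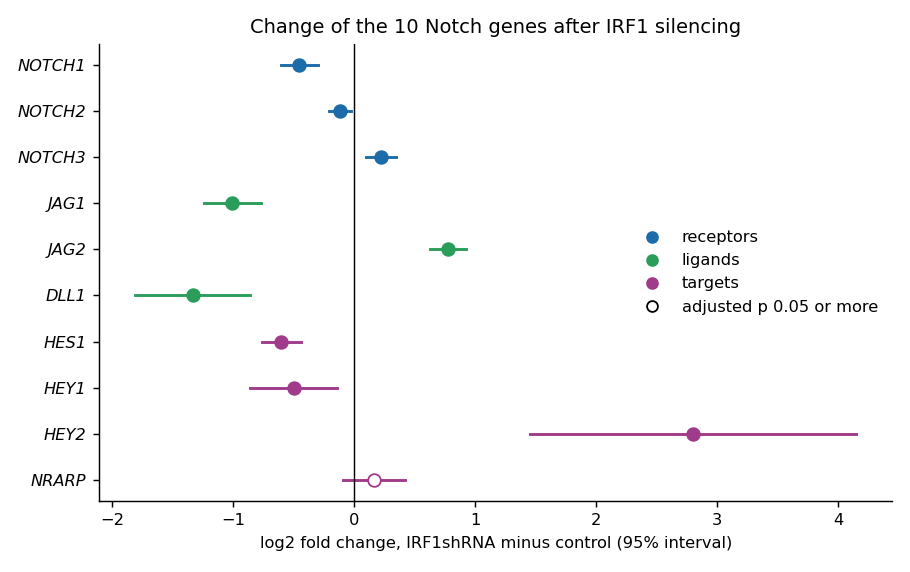
Log2 fold change of each Notch gene, IRF1shRNA minus control, with its 95% interval, colored by role, and with an open symbol where the adjusted p was 0.05 or more. JAG1 and DLL1 lie at -1.005 and -1.33 on the lower side and JAG2 at 0.78 on the higher side, and the interval of NRARP crosses 0.

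Among the receptors, the single-pass proteins that bind the ligands and release the signaling fragment, NOTCH1 fell and NOTCH3 rose. NOTCH1 (chr9:136494433-136545786, minus strand, GENCODE 29 on GRCh38, as for all gene positions) had 28.7, 31.9 and 28.2 CPM in controls and 22.1, 19.3 and 23.1 CPM in IRF1shRNA samples. Every silenced sample lay below every control, and the means were 29.6 ± 1.98 and 21.5 ± 1.97 CPM (SD, n = 3 each). The log2 fold change was -0.45 (SE 0.07, 95% interval -0.60 to -0.30; adjusted p = 4.22e-05, edgeR's quasi-likelihood test).

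NOTCH3 (chr19:15159038-15200981, minus strand) moved the other way. It had 40.3, 43.4 and 47.1 CPM in controls and 51.3, 47.9 and 53.5 CPM in IRF1shRNA samples. The groups nearly touched, at 47.1 CPM in control replicate 3 and 47.9 CPM in IRF1shRNA replicate 2. The means were 43.6 ± 3.41 and 50.9 ± 2.81 CPM, with a log2 fold change of 0.22 (SE 0.06, 95% interval 0.10 to 0.35; adjusted p = 0.00359, edgeR's quasi-likelihood test). The count ratio of NOTCH3 to NOTCH1 within each library went from 1.41, 1.36 and 1.67 in controls to 2.32, 2.48 and 2.31 in IRF1shRNA samples, a description chosen after the values were seen.

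NOTCH2 (chr1:119911553-120069626, minus strand) was by far the most abundant receptor transcript and changed least. It had 531, 559 and 519 CPM in controls and 490, 506 and 492 CPM in IRF1shRNA samples. The log2 fold change was -0.11 (SE 0.04, 95% interval -0.21 to -0.022; adjusted p = 0.0367, edgeR's quasi-likelihood test), and 22.7% of all tested genes changed by less. The call was lost under 7 of 15 alternatives, with adjusted p from 0.0202 to 0.224 over all of them and with 0.224 without control replicate 2, 0.0987 without IRF1shRNA replicate 1 and 0.0913 without IRF1shRNA replicate 3 (edgeR's quasi-likelihood test). NOTCH2 shares near-identical sequence with the NOTCH2NL genes, among which reads can be split. The counts listed for NOTCH2NLA and NOTCH2NLC, which are separate from those of NOTCH2, together equalled 0.834% of the NOTCH2 count in controls and 0.530% in IRF1shRNA samples, and NOTCH2NLB had at most 3 counts per library.

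All 3 ligands were called, and the Jagged pair, which are membrane-bound activators of the receptors, moved in opposite directions. JAG1 (chr20:10637684-10673999, minus strand) had 9.57, 9.88 and 11.3 CPM in controls and 4.65, 4.34 and 6.14 CPM in IRF1shRNA samples. The highest silenced sample lay well below the lowest control, and the IRF1shRNA mean was 49.2% of the control mean. Its log2 fold change was -1.005 (SE 0.11, 95% interval -1.24 to -0.77; adjusted p = 6.76e-07, edgeR's quasi-likelihood test), larger in size than that of 91.3% of tested genes.

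JAG2 (chr14:105140981-105168824, minus strand) rose to 171% of its control level. Its values were 7.14, 7.53 and 7.21 CPM in controls and 13.0, 12.0 and 12.5 CPM in IRF1shRNA samples. Both groups were tight, with SDs of 0.209 and 0.504 CPM. The log2 fold change was 0.78 (SE 0.07, 95% interval 0.63 to 0.93; adjusted p = 7.32e-08, edgeR's quasi-likelihood test). Within each library the JAG1 count was 1.34, 1.31 and 1.57 times the JAG2 count in controls and 0.359, 0.363 and 0.491 times it in IRF1shRNA samples, so that the larger count of the pair passed from JAG1 to JAG2; this ratio too was chosen after the values were seen.

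DLL1 (chr6:170282206-170306565, minus strand), a Delta-like ligand, was scarce in both groups and fell further. It had 96, 119 and 121 counts in controls and 46, 18 and 53 counts in IRF1shRNA samples, the lowest of which came from the shallowest library. Scaled for depth these were 0.779, 0.971 and 0.812 CPM against 0.365, 0.324 and 0.322 CPM, and the silenced libraries agree closely with each other. The log2 fold change was -1.33 (SE 0.23, 95% interval -1.81 to -0.86; adjusted p = 8.29e-05, edgeR's quasi-likelihood test).

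Exons of JAG1 overlap an antisense gene in the annotation, AL050403.2, exons of JAG2 overlap AL512356.1 on the same strand, and FAM120B lies opposite DLL1 without a shared exon. Whether the counting used strand is not given in the sources used here, so reads of these neighbours may be included.

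Among the targets, HES1 and HEY1, both transcriptional repressors of the bHLH family, fell, while their relative HEY2 was called higher from a control level near the floor of detection. HES1 (chr3:194136145-194138732, plus strand) had 13.5, 14.5 and 15.2 CPM in controls and 8.87, 9.39 and 10.2 CPM in IRF1shRNA samples. The groups were clearly apart, and the silenced samples kept 65.9% of the control mean. The log2 fold change was -0.60 (SE 0.08, 95% interval -0.76 to -0.44; adjusted p = 3.75e-06, edgeR's quasi-likelihood test).

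HEY1 (chr8:79764010-79767863, minus strand) was lower and less even. The controls had 1.85, 2.14 and 1.34 CPM and the IRF1shRNA samples 1.29, 1.30 and 1.19 CPM. Control replicate 3 came close to the silenced samples. The log2 fold change was -0.50 (SE 0.17, 95% interval -0.86 to -0.14; adjusted p = 0.0212, edgeR's quasi-likelihood test). The call was lost without control replicate 1 (adjusted p = 0.0577), control replicate 2 (0.150) or IRF1shRNA replicate 3 (0.0759) and with libraries thinned to equal depth (0.0561), all by edgeR's quasi-likelihood test.

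HEY2 (chr6:125747664-125761269, plus strand) had 2, 2 and 4 counts in controls and 22, 12 and 13 counts in IRF1shRNA samples. These are 0.0162, 0.0163 and 0.0268 CPM against 0.175, 0.216 and 0.0790 CPM. All silenced libraries were above the floor of 3 counts, and 1 of 3 controls was. The fitted log2 fold change was 2.80 (SE 0.64, 95% interval 1.45 to 4.15; adjusted p = 0.00134, edgeR's quasi-likelihood test), values that carry no weight as a test because the gene was tested only through its high group. Since most counts were even, as if both mates of a pair had been counted, the table holds about 4 read pairs in controls and 23 in IRF1shRNA samples. The ratio of their CPM was 6.56, with an exact 95% interval of 2.24 to 26.1 that covers counting error only. It comes from the same counts that let the gene through the filter, so it carries no weight as a test either. The RefSeq start used for the sequence above lies inside the annotated span of this gene.

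NRARP (chr9:137300482-137302251, minus strand), which encodes an ankyrin-repeat protein that restrains Notch signaling and is itself a Notch target, was the one gene of the 10 that was not called. It had 1.736, 1.812 and 1.804 CPM in controls and 1.889, 2.036 and 2.084 CPM in IRF1shRNA samples. The silenced samples were all slightly above the controls, with a log2 fold change of 0.17 (SE 0.12, 95% interval -0.093 to 0.42; adjusted p = 0.285, edgeR's quasi-likelihood test). With thinned libraries the value was -0.00099, so no direction is drawn. Within each library the HES1 count was 7.76, 7.99 and 8.45 times that of NRARP in controls and 4.69, 4.61 and 4.90 times it in IRF1shRNA samples, a ratio chosen after the values were seen.

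**Figure D3:**
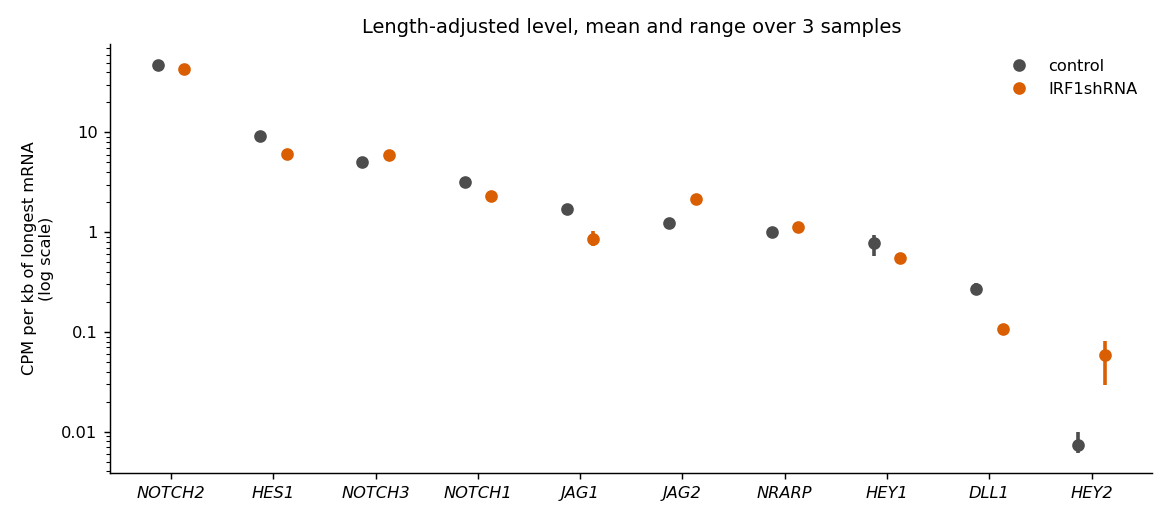
CPM per kilobase of the longest protein-coding mRNA for the 10 Notch genes, on a log axis, ordered by the control mean, with points for the mean and lines for the range of 3 samples. NOTCH2 stands at 47.1 in controls and HEY2 at 0.00739, and JAG1 stands above JAG2 in controls and below both JAG2 and NRARP in IRF1shRNA samples.

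Divided by mRNA length, so that levels can be set between genes, the order in controls ran from NOTCH2 at 47.1 ± 1.82 CPM per kilobase through HES1 at 9.12 ± 0.561, NOTCH3 at 5.03 ± 0.394, NOTCH1 at 3.18 ± 0.213, JAG1 at 1.73 ± 0.157 and JAG2 at 1.25 ± 0.0358 to NRARP at 1.01 ± 0.0234. Below these stood HEY1 at 0.773 ± 0.177, DLL1 at 0.269 ± 0.0324 and HEY2 at 0.00739 CPM per kilobase. In the IRF1shRNA samples JAG2, at 2.14 ± 0.0863 CPM per kilobase, came level with NOTCH1 at 2.31 ± 0.212, their ranges overlapping. HES1 at 6.01 ± 0.433 and NOTCH3 at 5.87 ± 0.325 overlapped as well, while JAG1 at 0.849 ± 0.162 dropped below NRARP at 1.13 ± 0.0574 CPM per kilobase. HEY1 at 0.548 ± 0.0254, DLL1 at 0.106 ± 0.00764 and HEY2 at 0.0585 CPM per kilobase again came last. With the merged length of all annotated exons in place of the mRNA, JAG1 and JAG2 stood level in controls, at 1.10 and 1.14, and NOTCH3 exceeded HES1 in IRF1shRNA samples, at 5.42 against 4.60 CPM per kilobase.

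By the same scale, per kilobase of mRNA, NOTCH2 made up 85.2% ± 0.755 of the 3 receptors in controls and 84.2% ± 1.08 in IRF1shRNA samples. In the mix of the 3 ligands JAG1 went from 53.2% ± 2.64 to 27.3% ± 3.65 and JAG2 from 38.6% ± 1.90 to 69.2% ± 3.34. Per kilobase of merged exons JAG1 went from 43.9% ± 2.63 to 20.8% ± 3.05 and JAG2 from 45.5% ± 1.82 to 75.2% ± 2.74. On that length JAG1 did not lead the 3 ligands in controls. The summed ligand level was 3.25 ± 0.159 CPM per kilobase of mRNA in controls and 3.09 ± 0.199 in IRF1shRNA samples, and its ranges overlapped. Per kilobase of merged exons the sum was 2.51 ± 0.108 in controls and 2.60 ± 0.144 in IRF1shRNA samples. Its ranges overlapped there too, so no direction is drawn for the sum. These shares are given as descriptions, with no test, and the ligand shares and sum cover JAG1, JAG2 and DLL1 alone. DLL3, a Delta-like ligand outside them, stood at 1.81 CPM per kilobase of mRNA in controls and 1.99 in IRF1shRNA samples. DLL3 thus lay above JAG1 in IRF1shRNA samples and above JAG2 in controls. In controls its mean fell within the JAG1 range of 1.61 to 1.91, so DLL3 and JAG1 stood level there. JAG1 was therefore not a clear leader among the ligands once DLL3 is included.

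**Figure D4:**
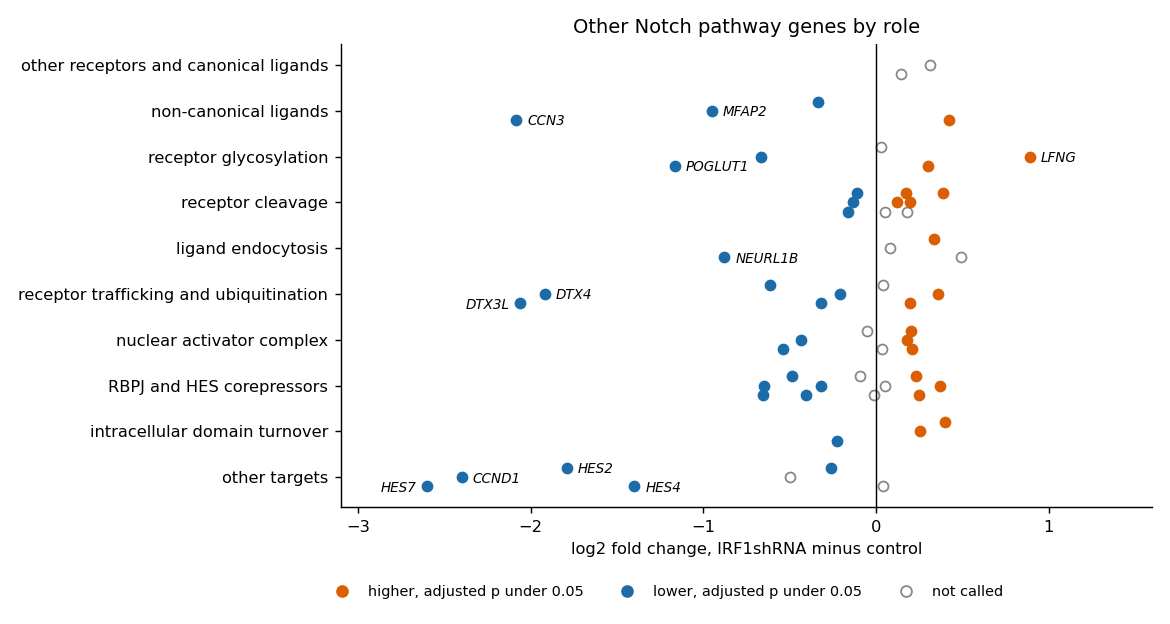
Log2 fold change, IRF1shRNA minus control, of the 60 tested Notch pathway genes outside the 10, by role, with filled points for an adjusted p under 0.05 and names for changes over 0.85 in size. The 8 called genes below -1 lie in 4 roles, and 4 of them are other targets. Of these, HES2 needed its controls to pass the filter on low counts.

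The rest of the pathway was read from a list of 67 genes, of which 60 were tested. Among these 18 were called higher, 27 lower and 15 were not called, so 75% were called beside 50.5% of all tested genes. The list was drawn up with earlier results known, so the excess is not evidence about the pathway or any role in it. Beyond 2-fold, 8 were lower and none higher, where 4.43% of all tested genes were lower and 3.43% higher, and the median log2 fold change was -0.030 beside -0.0024 over all tested genes. NOTCH4, the endothelial receptor, was not tested, and the Delta-like ligands DLL3 and DLL4 were not called.

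The non-canonical ligands held 3 lower and 1 higher gene among 4 tested. CCN3, a matricellular protein also known as NOV, had the largest change among them, from 17.6 ± 1.73 to 4.17 ± 0.103 CPM (log2 fold change -2.08; adjusted p = 1.94e-12, edgeR's quasi-likelihood test). MFAP2, a microfibril protein, was lower by -0.95, the neuronal ligand DNER lower by -0.34 and DLK2 higher by 0.42 on the log2 scale. Of the 5 glycosylation enzymes, which add and extend the sugars that tune ligand choice, 2 rose and 2 fell. The O-glucosyltransferase POGLUT1 was lower, at 21.0 CPM in controls and 9.38 CPM in IRF1shRNA samples, and the O-fucosyltransferase POFUT1 was higher, at 224 and 276 CPM. LFNG, the fringe enzyme that shifts receptors from Jagged toward Delta-like ligands, stood at 0.712 CPM in controls and 1.29 CPM in IRF1shRNA samples, with a log2 fold change of 0.89 (adjusted p = 0.00176, edgeR's quasi-likelihood test).

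Of the 9 genes of the cleavage machinery 4 were higher and 3 lower, and the largest change was that of FURIN, the protease that trims receptors on their way to the surface, at 0.39 on the log2 scale. The gamma-secretase subunits APH1B and NCSTN were higher by 0.20 and 0.17 and APH1A was lower by -0.17 on the log2 scale. The APH1B call was lost without either of control replicates 1 and 2 or IRF1shRNA replicates 1 and 3, with adjusted p up to 0.126, and the NCSTN call without control replicate 1 or 2, at 0.0622 and 0.0549 (edgeR's quasi-likelihood test). In ligand endocytosis, which supplies the pull on the receptor, 1 of 4 genes was higher and 1 lower. NEURL1B, a ubiquitin ligase of the ligands, went from 57.1 to 31.1 CPM, a log2 fold change of -0.88, and MIB2, another such ligase, was higher by 0.33 on the log2 scale. Among 8 tested genes of receptor trafficking and ubiquitination 5 were lower and 2 higher, led by DTX3L, a Deltex-family ubiquitin ligase also known as an interferon-inducible gene, which went from 286 to 68.5 CPM (log2 fold change -2.06; adjusted p = 2.20e-14, edgeR's quasi-likelihood test). NUMBL, a relative of the Notch antagonist NUMB, was lower by -0.61, and of the Deltex genes DTX3 was lower by -0.32 and DTX2 higher by 0.36 on the log2 scale.

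In the nucleus, RBPJ, the DNA-binding partner of every Notch receptor, fell from 169 ± 8.60 to 117 ± 2.19 CPM, a log2 fold change of -0.54 (adjusted p = 2.45e-08, edgeR's quasi-likelihood test). The coactivator MAML2 was lower by -0.44 and MAML1 and SNW1 higher by 0.21 and 0.20 on the log2 scale, and in the activator complex as a whole 3 of 7 tested genes were higher and 2 lower. The corepressors that act with RBPJ and HES proteins had 5 lower and 3 higher genes among 11, led by the Groucho homolog TLE3 and by CTBP2, both at -0.65, and followed by the deacetylase HDAC2 at -0.49 and TLE4 at -0.41 on the log2 scale. Turnover of the intracellular domain was represented by 3 genes, with the ubiquitin ligase subunit FBXW7 higher by 0.40, CCNC higher by 0.25 and its kinase partner CDK8 lower by -0.23.

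The other targets had 5 lower and no higher gene among 7 tested, where 26.4% of all tested genes were lower and 24.1% higher. Their median log2 fold change was -1.40, beside -0.0024 over all tested genes. This short list too was drawn up with earlier results known, so these values are a description only. HES7, known as an oscillating repressor of the segmentation clock, went from 5.10 ± 0.235 to 0.808 ± 0.172 CPM (log2 fold change -2.60; adjusted p = 4.27e-11, edgeR's quasi-likelihood test). CCND1, the cell cycle regulator cyclin D1, went from 90.6 to 17.1 CPM (log2 fold change -2.40; adjusted p = 1.66e-14, edgeR's quasi-likelihood test). HES4 went from 16.7 to 6.21 CPM, a log2 fold change of -1.40, and MYC from 132 to 110 CPM, a log2 fold change of -0.26. CCND1 and MYC respond to many other pathways as well. DTX4 among the trafficking genes and HES2 here, both also lower beyond 2-fold, were too scarce for the naming rule and are named because the plot by role shows them. HES2 had 18, 26 and 34 counts in controls and 12, 0 and 8 in IRF1shRNA samples. It needed its controls to pass the filter on low counts, so its call carries no weight as a test. HES2 enters the 5 lower genes, their median and the counts of the whole list with this reservation. Beside HES1 and HEY1, the HES and HEY genes thus included some with larger changes, while HES6 and HEYL were not called and HES5 was not tested.

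**Figure D5:**
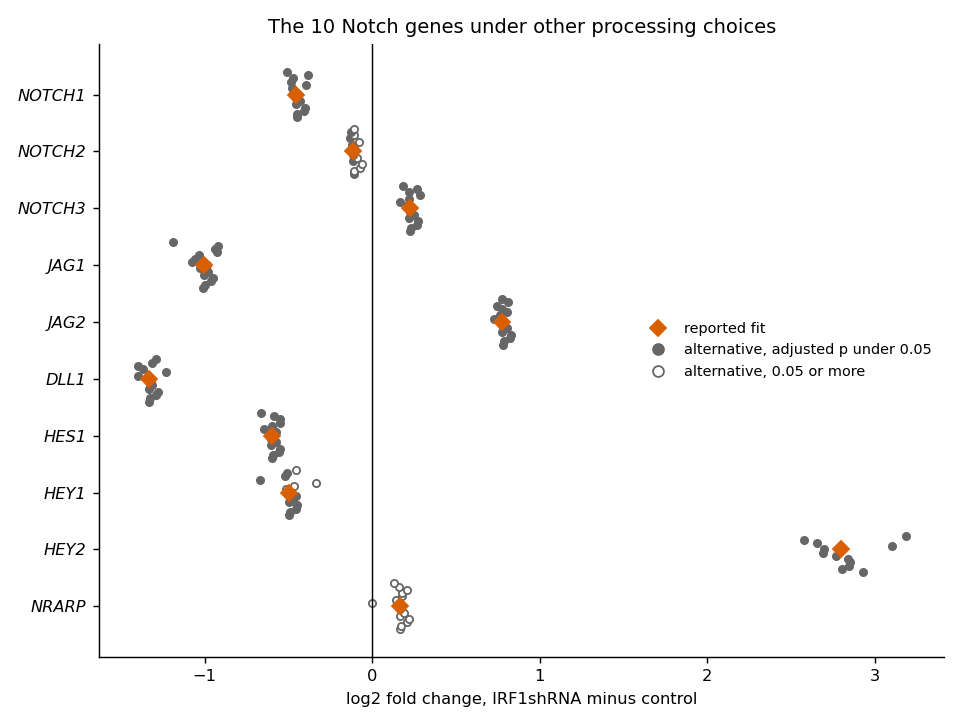
Log2 fold change of the 10 Notch genes, IRF1shRNA minus control, in the reported fit (diamonds) and in each alternative that gave a value (circles, open where the adjusted p was 0.05 or more). Open circles occur for NOTCH2, HEY1 and NRARP, and those of NRARP reach -0.00099. The filled circles of HEY2 carry no weight as tests.

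Other processing left most of the 10 calls in place. JAG1 kept its call with log2 fold changes between -1.19 and -0.92, JAG2 between 0.73 and 0.83, NOTCH1 between -0.51 and -0.38, NOTCH3 between 0.17 and 0.29 and HES1 between -0.66 and -0.55. JAG1 was just past 2-fold in the reported fit and within 2-fold in 8 of 15 alternatives, among them library size only (-0.95), upper quartile scaling (-0.96), halved counts (-0.98) and the fits without control replicate 3 (-0.92) or IRF1shRNA replicate 1 (-0.94) or 2 (-0.92). DLL1 ranged from -1.40 to -1.23 in the fits that tested it. HEY2 ranged from 2.58 to 3.19 over 12 fits and was not tested at 1 CPM, with halved counts or with thinned libraries. Its values are a description only, since in the reported fit it passed the filter through its IRF1shRNA libraries alone.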

How the data were processed

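RNA from 3 control and 3 IRF1shRNA samples of BT-549 cells was sequenced after preparation with the TruSeq Stranded mRNA kit. The deposited values were raw read counts for each gene symbol, which the authors had not normalized. The submitters' processing notes name CASAVA 1.8.2, STAR 2.7.9a, featureCounts, DESeq2 1.24.0 and the build GRCh38.p7. The annotation and the strand and pair settings are not given in the sources used here. Of the low counts per library, 72.1% to 75.2% were even, so that mates were probably counted separately, and halved counts were run as an alternative.

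Genes passing filterByExpr (minimum count 10) were tested with edgeR 4.0.16 in R 4.3.3, using TMM scaling, the quasi-likelihood test with group as the single factor, and Benjamini-Hochberg adjustment over all genes tested. Standard errors were the size of the log2 fold change divided by the square root of F. The procedure was run on simulated data with 1 fixed spread and few changed genes. Far more genes were called here, so this checks the code and not the error rates in these data. DESeq2 1.42.0, other scalings and filters, thinning, a replicate block and leaving out each library were alternatives. CPM is given as mean ± SD, and floors cover counting error only. The members and the pathway and marker lists were chosen with earlier results of these data known. Named pathway genes were up to 4 per role, past an adjusted p of 0.05 with a mean of at least 1 CPM, by size of change. A further gene of the corepressor list is not reported here. Merged exons as a gene length were added after the data were seen.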

Additional observations from a re-analysis of the deposited data

How the results depend on the processing

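Over the 10 Notch genes and IRF1, 149 refitted log2 fold changes kept their direction and side of the threshold, 11 lost the call and 1 reversed, and every count of called genes stayed within 1.5 times its reported value. NOTCH2 lost its call with DESeq2-style size factors (-0.11), upper quartile scaling (-0.070), library size only (-0.063) and at least 1 CPM in 3 samples (-0.090), and ranged from -0.13 to -0.081 when 1 library was left out. HEY1 lost it with thinned libraries (-0.52) and ranged from -0.67 to -0.34 when 1 library was left out. NRARP gave -0.00099 with thinned libraries. The cause was not tested. The median over all genes was 0.049 with library size only and 0.041 with upper quartile scaling. Under the replicate block JAG1, NOTCH2 and HEY1 kept their calls and 4490 genes were called higher and 4972 lower, beside 4548 and 4971 without it. Same-numbered samples did not deviate together (correlations 0.015, 0.022 and -0.012), so the numbers were not read as pairs, and 1 of 3 controls correlated best with its own number. Among other named genes 6 refits lost the call, 4 of APH1B and 2 of NCSTN, all with 1 library left out. At this depth HEY2 rests on 4 and 23 read pairs, DLL1 on 18 counts in its shallowest library, and neither was tested at 1 CPM.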

Other observations

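The NOTCH2NL genes, human copies of the first part of NOTCH2, were read as a check on NOTCH2. NOTCH2NLA had 1.38 ± 0.0551 CPM in controls and 0.856 ± 0.0492 CPM in IRF1shRNA samples, a log2 fold change of -0.68 (adjusted p = 0.00151, edgeR's quasi-likelihood test). NOTCH2NLC went from 3.09 ± 0.167 to 1.77 ± 0.109 CPM, a log2 fold change of -0.80 (adjusted p = 1.37e-05, edgeR's quasi-likelihood test). The groups did not overlap for either gene. How reads were divided among NOTCH2 and its copies is uncertain, and its part in these values was not tested.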
